A study of Mus musculus with 8 samples.

Results

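Named antisense transcripts are genes whose symbol is that of another gene followed by "os", for opposite strand, with or without a number. Of the 55401 genes in the table, 295 carried such a symbol and had a partner of the stem name, and the 295 rows had 250 different partners because some genes, such as Lrp8 and Bcas3, have several. A further 25 symbols with the ending had no partner in the table. The values are from RNA sequencing of whole mouse lung at E13.5. Of the 8 libraries, 4 came from mutants that carried the transgene combination written Tbx4tetOcre together with the Myrf allele written MyrfE6, and the other 4 from cre controls. The labels do not say which cre components the controls carried, what the allele is, how many embryos made a library, or whether each group holds separate litters. The p-values therefore cover the spread among these 8 libraries, which may in part be technical. Tbx4 is expressed in lung mesenchyme, and the labels do not say in which cells recombination took place.

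Antisense transcripts are read from the strand opposite a gene. Some start beside the gene's own promoter and run away from it, some run through its exons or introns, and some run into its end. Single examples are known to silence, to stabilise or to have no measurable influence on the gene opposite, and some are host transcripts of microRNAs or encode proteins of their own. Many are made at low levels, and a stranded library is needed to separate them from the gene they overlap.

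Total counts ranged from 17819285 to 48679134 in mutant libraries and from 17799899 to 19032389 in control libraries. Myrf, the targeted gene, averaged 88.4 ± 4.17 CPM (counts per M counts of the library, M standing for mega) in mutant lungs and 114 ± 5.64 CPM in control lungs (SD, n = 4 each), a log2 fold change of -0.37 (adjusted p = 0.000211). All 8 listed lung epithelial markers and all 6 lung mesenchymal markers were expressed, and the summed level of each list overlapped between groups. Of the epithelial markers, Sox2 and Etv5 were called at adjusted p under 0.05 in edgeR. Of these, 1 was lower and 1 higher, and the order of the names gives no direction. Of the mesenchymal markers, 1 was called lower (Wnt2). The summed level of 6 mesothelial markers was 113.2 to 130.3 CPM in mutants and 153.5 to 167.7 CPM in controls, with 3 of 6 lower (Lrrn4, Upk3b and Gpm6a). In bulk tissue, fewer cells of a type and less RNA per cell cannot be told apart. Mutant replicates 1 and 2 had Y-linked counts and Xist below 1 CPM, control replicates 2 and 3 had Xist at 874.3 and 867.6 CPM and almost no Y-linked counts, and the other 4 libraries had both. On the first principal component, the 2 libraries numbered 4 stood close together (4.119 for the mutant, 4.956 for the control), with scores of -23.89 to -12.54 in the remaining mutants and 14.53 to 17.72 in the remaining controls.

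All 295 antisense genes lay on the strand opposite their partner, and every partner was protein-coding. In 124 pairs the antisense gene lay within the partner's span, in 84 the starts overlapped, in 28 the ends overlapped and in 9 the partner lay within the antisense gene. The remaining genes did not touch, with starts facing away from each other in 38 pairs and ends facing each other in 12. Exon bases were shared in 164 pairs and none in 131. The annotation typed 254 as antisense and 11 as protein-coding, among them Slc7a6os and Wdr83os.

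Most antisense genes had few or no counts in E13.5 lung. Reads overlapping several genes were not counted, and same-strand overlap was not looked up for the untested genes. The kit also selects messenger RNA, so few counts are not shown to mean little transcription. Only 59 of 295 had enough counts to be tested, against 186 of the 250 partners (74.4%), 99 had no count in any library, and 194 of the 236 untested averaged under 0.1 CPM. The tested antisense genes had a median of 2.29 CPM, the tested partners 26.4 CPM and all 15788 tested genes 24.6 CPM. Tested antisense genes were 10 of 124 (8.07%) among those within the partner's span, 24 of 84 (28.6%) among those with overlapping starts and 11 of 38 (28.9%) among those with starts facing away. The antisense start in the table could be set against RefSeq starts of the partner in 236 pairs. It lay within 1 kb of a RefSeq start of the partner in 26 of 47 tested genes (55.3%) and in 44 of 189 untested genes (23.3%). The 300-base RefSeq promoter windows of tested antisense genes held a median of 13 CG dinucleotides (51 windows), those of untested antisense genes 5 (160 windows) and all RefSeq windows 7. The letters TATAAA, searched on both strands, were in 9.8% of the windows of tested antisense genes, 7.5% of those of untested ones and 13.6% of all windows.

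Levels of antisense genes and partners can be set side by side per kb of exon. Over the 54 pairs with both genes tested, the antisense gene stood at a median of 0.198 of its partner's CPM per kb. The lowest ratio was 0.00292, for H3f3aos opposite the histone gene H3f3a. The antisense gene exceeded its partner in 12 pairs, with the highest ratio, 28.6, for Epb41l4aos, which ends 340 bases from the end of Epb41l4a, a gene of the band 4.1 family of membrane-skeleton proteins. The median ratio was 0.675 for the 10 pairs with starts facing away and 0.149 for the 22 with overlapping starts, a difference that was not tested.

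**Figure D1:**
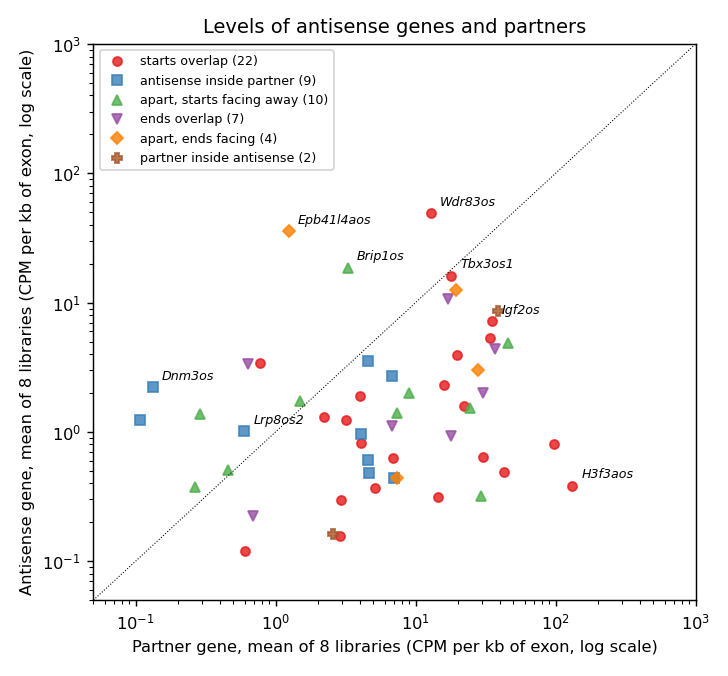
Mean level of each antisense gene (vertical axis) against that of its partner (horizontal axis), in CPM per kb of exon over all 8 libraries, on log axes, for the 54 pairs with both genes tested; symbols give the layout of the pair and the dotted line marks equal levels. The 12 pairs above the line include Epb41l4aos, Brip1os, Wdr83os, Dnm3os and Lrp8os2.

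Strand assignment could be checked in the pairs that share exon bases. In 20 pairs with at least 100 shared exon bases, at least 1000 partner counts would fall on those bases if a partner's counts were spread evenly over its exons. In 4 of them the antisense gene had 0 counts beside 5893 such partner counts, of which 3 counts would be 0.0509%. These 4 were picked for their 0 counts, so this share is no upper limit on wrong-strand reads over the 20 pairs. The median count of the whole antisense gene was 1.19% of the partner counts on shared bases. For genes described below the same share was 12.7% for Gata5os, 12.4% for Hoxb3os, 112.5% for Tmem51os1 and 150.7% for Hoxb5os. The antisense counts include exon bases outside the overlap, so these shares do not compare the strands on the same bases. Tmem51os1 shares 243 of its 3562 exon bases and Hoxb5os 100 of its 696.

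Which antisense genes differed between mutant and control lung? A single one passed the threshold of adjusted p = 0.05 among the 59 tested (1.69%), in the direction of lower expression, where 1.49% of all tested genes passed in either direction and 0.931% in the lower direction. At an unadjusted p under 0.05 stood 11 antisense genes (18.6%), 9 lower and 2 higher in mutants, against 13.9% of all tested genes. In 10 antisense genes (16.9%) no mutant library overlapped a control library, 8 lower and 2 higher in mutants, where 7.37% of all tested genes had this pattern, 4.06% lower and 3.31% higher. Among partners, groups did not overlap in 20 of 186 (10.8%), 13 higher and 7 lower in mutants. The median size of the log2 fold change was 0.16 for antisense genes, 0.07 for partners and 0.07 for all tested genes, beside the lower counts of the antisense genes. Of the 59, 33 had a negative and 26 a positive log2 fold change, from -0.81 to 0.89, with a median of -0.02.

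**Figure D2:**
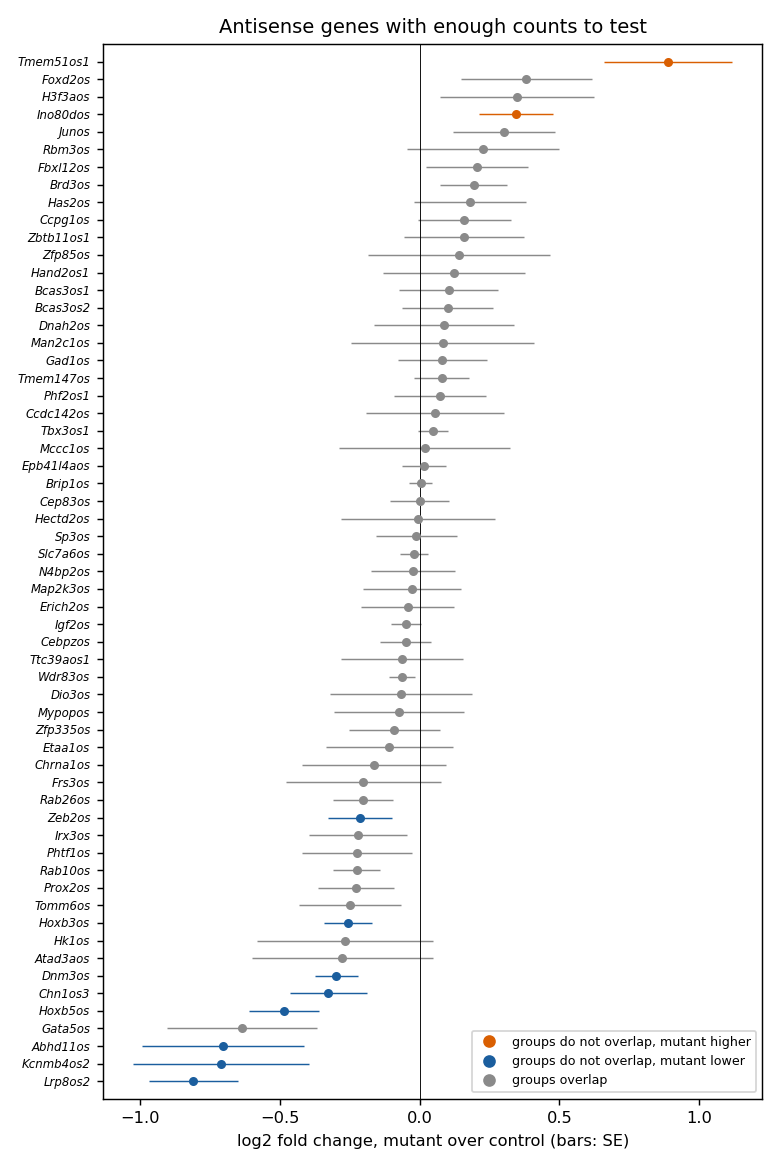
Log2 fold change of each of the 59 tested antisense genes, mutant over control, with its SE as a bar, ordered from highest to lowest; orange and blue mark genes whose groups did not overlap, with mutants higher and lower. Tmem51os1 stands at the top at 0.89 and Lrp8os2 at the bottom at -0.81.

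Lrp8os2 was the antisense gene that fell. It lies on the minus strand at chr4:107806033-107823022 (GRCm38), inside Lrp8 at chr4:107801869-107876840, with no exon base in common. Lrp8 encodes an apolipoprotein E receptor that also binds reelin. Lrp8os2 begins 21153 bases into Lrp8. RefSeq places an internal start of Lrp8, 1 of 3, 139 bases away on the other strand. By annotation, both genes thus run apart from a short interval. Counts per gene sum all starts of Lrp8, so use of the internal start in these lungs was not measured. The RefSeq window of Lrp8os2 (GRCm38.p6, chr4:107822973-107823272, minus strand) is shown because it holds both starts. The capitals at the right are the first 50 transcribed bases of Lrp8os2, the 112 capitals at the left are transcribed on the opposite strand from the internal Lrp8 start, and the 138 bases in lower case lie between:
Lrp8os2: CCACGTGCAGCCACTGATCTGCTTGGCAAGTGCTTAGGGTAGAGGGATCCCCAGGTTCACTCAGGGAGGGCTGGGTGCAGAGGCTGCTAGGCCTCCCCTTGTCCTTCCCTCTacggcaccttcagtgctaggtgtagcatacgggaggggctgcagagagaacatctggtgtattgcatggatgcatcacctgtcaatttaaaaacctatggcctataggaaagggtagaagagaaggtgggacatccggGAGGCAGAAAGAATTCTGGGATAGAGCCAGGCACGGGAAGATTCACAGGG
This window holds 5 CG dinucleotides, a number that 62% of all RefSeq windows reach or exceed, and no TATAAA.

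**Figure D3:**
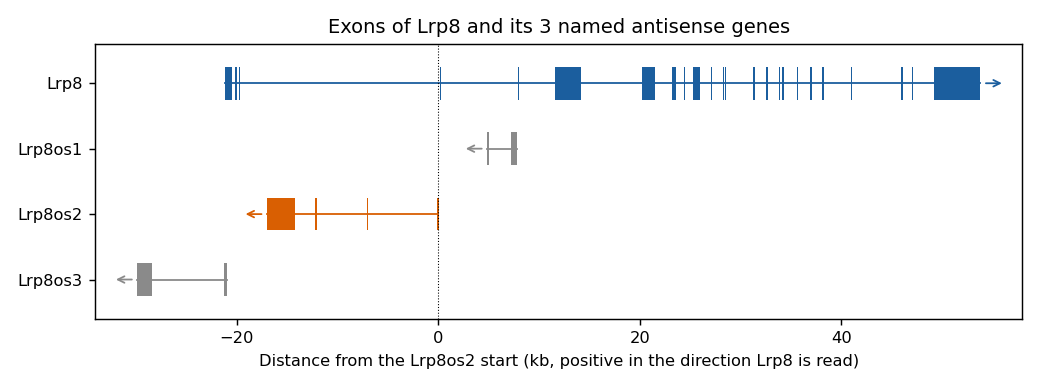
Exons (boxes) and introns (lines) of Lrp8 and its 3 antisense genes, as distance in kb from the Lrp8os2 start; arrows give the direction of transcription and exons under 0.12 kb are drawn at that width. The 4 exons of Lrp8os2 lie between exons of Lrp8, and the dotted line marks its start.

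Lrp8os2 had 1.73, 2.81, 2.29 and 2.59 CPM in mutant replicates 1 to 4, against 4.07, 4.68, 4.24 and 3.72 CPM in control replicates 1 to 4. Every mutant library lay below every control library, and mutant replicate 1 was the lowest. The counts behind these values were 274 in mutant and 301 in control libraries. The log2 fold change was -0.81 ± 0.16 (SE; adjusted p = 0.0163, edgeR quasi-likelihood test over all genes), which is 0.571 of the control level. Lrp8 itself had 7.49, 7.15, 7.86 and 8.16 CPM in mutants, against 7.08, 6.93, 8.87 and 7.27 CPM in controls. These groups overlapped, and the log2 fold change of Lrp8 was 0.02 ± 0.10 (SE; adjusted p = 0.963). Per kb of exon, Lrp8os2 stood at 0.732 CPM in mutants and 1.30 CPM in controls, while Lrp8 stood at 0.604 CPM in mutants and 0.594 CPM in controls, so the antisense gene had the higher group mean of the pair in mutants and in controls.

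The fall in Lrp8os2 kept its direction in all 17 alternative fits and passed in 13. It missed the threshold without control replicate 2 (log2 fold change -0.75, adjusted p = 0.0586), without control replicate 3 (-0.80, adjusted p = 0.0562), with the Y-linked level as a covariate (-0.70, adjusted p = 0.155) and when the fit was restricted to the 4 libraries that express Xist and also Y-linked genes (-0.67, adjusted p = 0.339). Over all 17 the adjusted p ran between 0.00029 and 0.339. The mesothelial marker sum given above also separated the groups, and its part in the result was not tested. The other antisense genes of Lrp8 gave no signal to compare: Lrp8os1 had 0 counts in all 8 libraries, and Lrp8os3, which starts 195 bases inside Lrp8, had 3 counts in mutants and 3 in controls.

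Tmem51os1 had the largest positive log2 fold change of the tested antisense genes. It lies on the plus strand at chr4:142083972-142088099, and its start overlaps that of Tmem51, a membrane protein gene, with 243 exon bases in common. Its RefSeq window (GRCm38.p6, chr4:142084048-142084347, plus strand) is shown as a GC-rich start region, with the 50 bases from the RefSeq start on in capitals. The table starts the gene farther upstream, so the bases in lower case lie within its counted span. They also lie within the span of Tmem51 on the other strand, which is not marked in capitals here, unlike in the other windows shown:
Tmem51os1: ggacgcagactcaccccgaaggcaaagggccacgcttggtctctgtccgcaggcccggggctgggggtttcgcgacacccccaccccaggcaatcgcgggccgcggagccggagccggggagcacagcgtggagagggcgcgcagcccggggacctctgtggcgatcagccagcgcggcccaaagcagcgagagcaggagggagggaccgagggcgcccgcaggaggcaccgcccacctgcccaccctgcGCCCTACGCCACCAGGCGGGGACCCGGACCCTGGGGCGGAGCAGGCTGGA
It holds 30 CG dinucleotides, a number that 11.7% of all RefSeq windows reach or exceed. Tmem51os1 had 1.93, 1.70, 1.66 and 1.46 CPM in mutants, against 1.06, 1.01, 1.02 and 0.564 CPM in controls. No mutant library overlapped a control library, and control replicate 4 was the lowest. The log2 fold change was 0.89 ± 0.23 (SE), with an adjusted p of 0.056, which missed the threshold, and 3 of 17 alternatives passed it. Tmem51 averaged 9.83 ± 0.783 CPM in mutants and 9.29 ± 0.476 CPM in controls (SD, n = 4 each), with overlapping groups and an adjusted p of 0.759 in edgeR.

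A pair of antisense genes of the Hoxb cluster on chromosome 11, which encodes transcription factors that set position along the body axis and in lung, also lay lower in mutants without overlap. Hoxb5os (chr11:96291024-96306910, minus strand) contains the whole of Hoxb5 and also spans Hoxb6 without sharing its exon bases. Hoxb5os had 5.05, 5.47, 3.66 and 5.63 CPM in mutants, against 6.60, 7.27, 7.12 and 6.93 CPM in controls. Mutant replicate 3 was the lowest, and the 4 mutants lay below the 4 controls. The log2 fold change was -0.49 ± 0.13 (SE; adjusted p = 0.0571), which missed the threshold and passed it in 4 of 17 alternatives. Hoxb5 had 115.6, 100.5, 111.9 and 109.2 CPM in mutants, against 104, 103.8, 103.8 and 119.6 CPM in controls. Its groups overlapped, and its log2 fold change was 0.02 ± 0.05 (SE; adjusted p = 0.920). Hoxb6 had a log2 fold change of -0.28 (adjusted p = 0.285).

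Hoxb3os (chr11:96343072-96354691, minus strand) shares 2250 of its 4201 exon bases with Hoxb3 and 953 with Hoxb2. It was the antisense gene whose partner also showed groups without overlap, the 1 pair of 54 with this pattern in both genes. Hoxb3os had 7.77, 7.66, 7.47 and 7.65 CPM in mutants, against 9.98, 8.63, 8.98 and 8.91 CPM in controls. Hoxb3 had 123.5, 110.7, 123.1 and 127.3 CPM in mutants, against 139.1, 129.7, 135 and 138.4 CPM in controls. Both genes lay lower in every mutant library than in any control library. The log2 fold changes were -0.26 for Hoxb3os (adjusted p = 0.165) and -0.17 for Hoxb3 (adjusted p = 0.0565), and neither passed. Within the same cluster Hoxb8 fell, at 7.20 CPM in mutants and 13 CPM in controls (log2 fold change -0.84, adjusted p = 6.2e-05). Hoxb2, Hoxb4 and Hoxb7 had log2 fold changes of -0.11, -0.23 and -0.47, against 0.02 for Hoxb5. None of these passed (adjusted p = 0.356, 0.0775 and 0.212 in edgeR for the first 3).

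Dnm3os is a single-exon transcript of 7928 bases at chr1:162217623-162225550 on the plus strand, inside Dnm3, which encodes a dynamin, a GTPase of membrane fission. It is known as the host transcript of 2 microRNA hairpins, and RefSeq places Mir199a-2 and Mir214 within its exon. Their mature sequences are shown to identify what the transcript carries, with the seed (bases 2 to 8) in capitals:
miR-199a-5p: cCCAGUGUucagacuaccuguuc
miR-199a-3p: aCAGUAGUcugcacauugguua
miR-214-5p: uGCCUGUCuacacuugcugugc
miR-214-3p: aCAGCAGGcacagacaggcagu
No seed is shared among the 4. The rows of both hairpins were listed at 0 counts in all 8 libraries. Both lie wholly inside the Dnm3os exon on its strand, and reads overlapping several genes were not counted. Their 0 counts therefore follow from the counting and say nothing about their level. The libraries were made with a kit that selects messenger RNA, and mature microRNAs were not measured. Dnm3os had 15.5, 14, 17.6 and 16.2 CPM in mutants, against 19.9, 19.8, 19.7 and 17.9 CPM in controls. The groups did not overlap, although mutant replicate 3 and control replicate 4 came close. The log2 fold change was -0.30 ± 0.08 (SE; adjusted p = 0.0571), which missed the threshold and passed it in 5 of 17 alternatives. Dnm3 averaged 3.11 ± 0.445 CPM in mutants and 3.38 ± 0.273 CPM in controls (SD, n = 4 each; log2 fold change -0.13, adjusted p = 0.773 in edgeR). Per kb of exon, Dnm3os stood at 2.22 CPM and Dnm3 at 0.133 CPM over all libraries.

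The other antisense genes without overlap had lower levels or smaller differences, and none passed. Zeb2os, opposite the gene for a repressor of E-cadherin, had 4.92 to 5.01 CPM in mutants and 5.03 to 6.65 CPM in controls. Chn1os3 had 2.66 to 3.27 CPM in mutants and 3.39 to 3.95 CPM in controls. Ino80dos, the second gene with mutants higher, had 4 to 4.38 CPM in mutants and 2.88 to 3.84 CPM in controls. Abhd11os and Kcnmb4os2 reached at most 1.01 CPM in any library, with log2 fold changes of -0.70 and -0.71 and SEs of 0.29 and 0.32. The partners Zeb2, Chn1, Ino80d, Abhd11 and Kcnmb4 all had overlapping groups.

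**Figure D4:**
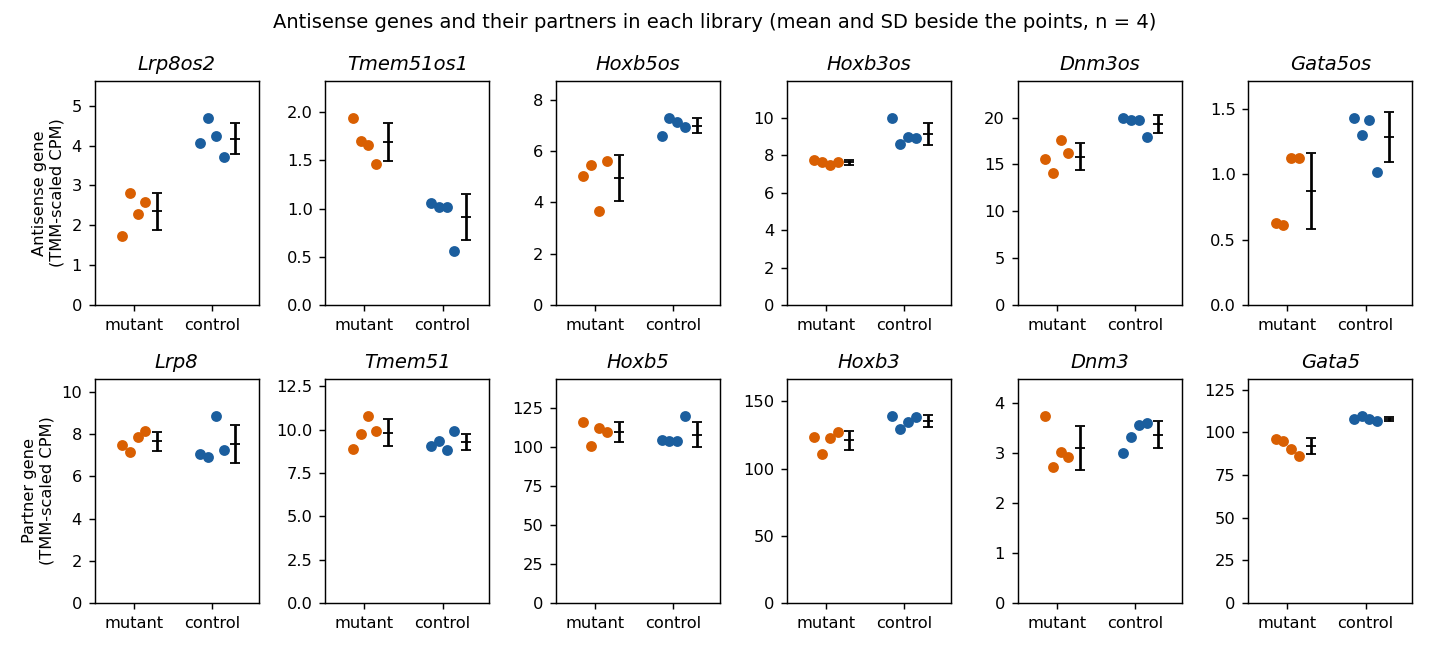
TMM-scaled CPM in each library for 6 antisense genes (upper row) and their partners (lower row), mutants left and controls right, with the mean and SD (n = 4) beside the points and every axis starting at 0. For Lrp8os2, Tmem51os1, Hoxb5os and Dnm3os the antisense groups are apart while the partner groups overlap; for Gata5os the partner's groups are apart instead, and for Hoxb3os both are.

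Seen from the partners, 5 of 186 passed (2.69%), where 1.49% of all tested genes did: Gata5, N4bp2, Arhgap20 and Egfr fell and Ptprt rose. Only Gata5 and N4bp2 had an antisense gene with enough counts to test. Gata5, a zinc-finger transcription factor gene of endoderm and heart (chr2:180325133-180334699, minus strand), had 95.9, 95, 90.2 and 85.9 CPM in mutants, against 107.9, 109.5, 107.8 and 106.6 CPM in controls. All mutants lay below all controls, the log2 fold change was -0.23 ± 0.04 (SE; adjusted p = 0.00571), and the call held in 17 of 17 alternatives. Gata5os, which starts inside Gata5 and shares 258 exon bases with it, had 0.631, 0.615, 1.12 and 1.13 CPM in mutants, against 1.43, 1.30, 1.41 and 1.01 CPM in controls. Mutant replicates 3 and 4 overlapped control replicate 4, and the log2 fold change was -0.64 ± 0.27 (SE; adjusted p = 0.287), between -0.78 and -0.12 over the alternatives.

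N4bp2 had 52.2, 50.3, 56.5 and 60.7 CPM in mutants, against 66.3, 65.3, 68.4 and 60.7 CPM in controls. Mutant replicate 4 and control replicate 4 met, and the call (log2 fold change -0.25, adjusted p = 0.0324) held in 8 of 17 alternatives. It was lost when mutant replicate 1, 2 or 3 or control replicate 1, 2 or 3 was left out, with adjusted p between 0.055 and 0.122. N4bp2os, which shares its start region and 337 exon bases with N4bp2, averaged 4.98 ± 0.906 CPM in mutants and 4.97 ± 0.795 CPM in controls (SD, n = 4 each; log2 fold change -0.02, adjusted p = 0.967 in edgeR).

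The antisense genes of the other 3 had almost no counts. Arhgap20, a gene for a GTPase-activating protein, had 24, 25.5, 23.3 and 20.3 CPM in mutants, against 34.8, 32.1, 35.9 and 31 CPM in controls, without overlap (log2 fold change -0.51, adjusted p = 0.000932), while Arhgap20os had 1 count in all libraries together. Egfr, the epidermal growth factor receptor gene, averaged 23.6 ± 0.977 CPM in mutants and 29.2 ± 1.69 CPM in controls (SD, n = 4 each; log2 fold change -0.31, adjusted p = 0.0165 in edgeR), and Egfros had 0 counts. Without mutant replicate 2 the adjusted p of Egfr was 0.0636, and without control replicate 3 it was 0.0779. Ptprt, which encodes a receptor-type tyrosine phosphatase, averaged 5.47 ± 0.423 CPM in mutants and 3.73 ± 0.699 CPM in controls (SD, n = 4 each; log2 fold change 0.56, adjusted p = 0.0475 in edgeR), and Ptprtos had 0 counts. The call for Ptprt held in 7 of 17 alternatives, and leaving out mutant replicate 1, 2 or 3 or control replicate 1, 2 or 3 gave adjusted p between 0.0909 and 0.144. With the Y-linked covariate the adjusted p was 0.247 for N4bp2, 0.165 for Egfr and 0.432 for Ptprt, and in the 4 libraries that express Xist and also Y-linked genes it was 0.73 for N4bp2, 0.443 for Egfr and 0.713 for Ptprt. Without robust estimation it was 0.056 for N4bp2 and 0.0679 for Ptprt, and limma-voom gave 0.0569 for Ptprt. For the antisense genes at 0, such a count allows up to 0.0616 to 0.169 CPM, depending on the library.

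The 8 antisense genes with the highest levels did not pass. Brip1os was the highest at 121 ± 6.04 CPM in mutants and 121 ± 5.84 CPM in controls (SD, n = 4 each), and its log2 fold change was 0.00 ± 0.04 (adjusted p = 0.980 in edgeR). It starts 177 bases from Brip1, the gene for a BRCA1-interacting DNA helicase, and runs away from it, so the pair is divergent. Brip1 had 23.5 to 26.3 CPM in mutants and 23.7 to 24.6 CPM in controls, and per kb of exon Brip1os stood at 18.7 CPM and Brip1 at 3.27 CPM over all libraries. The RefSeq window of Brip1 (GRCm38.p6, chr11:86201144-86201443, minus strand) is shown for comparison with the Lrp8os2 window, with the 50 transcribed bases of Brip1 in capitals at the right and the 74 bases past the Brip1os start, on the other strand, in capitals at the left:
Brip1: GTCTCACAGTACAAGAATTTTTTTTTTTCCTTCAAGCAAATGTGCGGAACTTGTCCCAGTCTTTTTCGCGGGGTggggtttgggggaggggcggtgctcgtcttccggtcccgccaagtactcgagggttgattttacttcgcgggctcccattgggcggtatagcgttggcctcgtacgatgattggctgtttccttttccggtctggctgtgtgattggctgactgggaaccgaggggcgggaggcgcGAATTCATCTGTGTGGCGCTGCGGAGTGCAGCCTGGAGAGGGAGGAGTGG
It holds 21 CG dinucleotides, against 5 in the Lrp8os2 window, and no TATAAA. Brip1os also shares 512 exon bases with Ints2 and 800 with Med13 on the opposite strand.

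Slc7a6os, opposite the amino acid transporter gene Slc7a6 and itself typed as protein-coding, averaged 52.0 ± 2.95 CPM in mutants and 52.9 ± 2.54 CPM in controls. Tbx3os1 starts 696 bases inside Tbx3, a T-box gene of lung mesenchyme, and averaged 52.2 ± 2.44 CPM in mutants and 50.4 ± 3.73 CPM in controls. Wdr83os, also typed as protein-coding, averaged 49.6 ± 1.93 CPM in mutants and 51.8 ± 2.12 CPM in controls. The groups of all 3 overlapped, with log2 fold changes of -0.02, 0.05 and -0.06. Igf2os, across the start of the imprinted growth factor gene Igf2, averaged 37.7 ± 2.48 CPM in mutants and 38.9 ± 1.58 CPM in controls, while Igf2 averaged 213 ± 18.2 CPM in mutants and 192 ± 15.2 CPM in controls (SD, n = 4 each throughout). The log2 fold changes of that pair were -0.05 for Igf2os and 0.14 for Igf2, with adjusted p of 0.762 and 0.403 in edgeR. Gm49394 lies on the strand of Igf2 and shares 1142 exon bases with Igf2os. Reads overlapping several genes were not counted, and the overlap of Gm49394 with Igf2 was not measured, so the Igf2 level may miss reads. Rab10os, at the end of the small GTPase gene Rab10, averaged 25.1 ± 3.04 CPM in mutants and 29.1 ± 2.16 CPM in controls, with a log2 fold change of -0.22 (adjusted p = 0.229), while that of Rab10 was -0.03. Epb41l4aos had a log2 fold change of 0.02 (adjusted p = 0.954) and Epb41l4a one of 0.30 (adjusted p = 0.0922), and the partner averaged 12.4 ± 0.897 CPM in mutants and 10.2 ± 0.897 CPM in controls without overlap.

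By the outermost starts in the table, which do not include internal starts such as that of Lrp8, 28 pairs began within 1 kb of each other and pointed apart, 10 of them with both genes tested. After Brip1os the highest were Cep83os, 78 bases from Cep83, a gene of the centriole's distal appendages, and Tmem147os, 39 bases from Tmem147. Cep83os averaged 9.10 ± 1.07 CPM in mutants and 9.19 ± 1.16 CPM in controls (SD, n = 4 each). Of the 2 Tmem147os rows, the one with more exon bases (1416 against 456) averaged 7.15 ± 0.463 CPM in mutants and 6.75 ± 0.428 CPM in controls (SD, n = 4 each). That row shares 177 exon bases with the other on the same strand, so its level may miss reads. Foxd2os, 384 bases from the forkhead gene Foxd2, had 1.18 to 1.54 CPM in mutants and 0.792 to 1.41 CPM in controls, with a log2 fold change of 0.38 (adjusted p = 0.505). Prox2os, at the end of the homeobox gene Prox2, had 3.21 to 4.34 CPM in mutants and 3.95 to 4.45 CPM in controls (log2 fold change -0.23, adjusted p = 0.497), against a log2 fold change of 0.17 for Prox2.

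Did an antisense gene move with its partner or against it? Over the 54 pairs with both tested, 26 (48.1%) had log2 fold changes of the same sign and 28 of opposite sign. The same sign was seen in 34 of 54 with the Y-linked level as a covariate and in 16 of 55 without control replicate 4. Both were negative in 15 pairs and both positive in 11, the antisense gene was negative with a positive partner in 15, and the reverse held in 13. Across pairs Pearson's r of the log2 fold changes was 0.157 and Spearman's rank correlation was 0.00694, given as a description because the points share the same 8 libraries and 2 of them share Bcas3. Each mutant library set against the control mean gave r of -0.07, 0.27, 0.07 and 0.04 for replicates 1 to 4. The same sign was seen in 17 of 36 pairs that share exon bases and in 9 of 18 that share none, in 11 of 22 with overlapping starts, in 5 of 10 with starts facing away and in 4 of 9 with the antisense gene inside its partner.

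**Figure D5:**
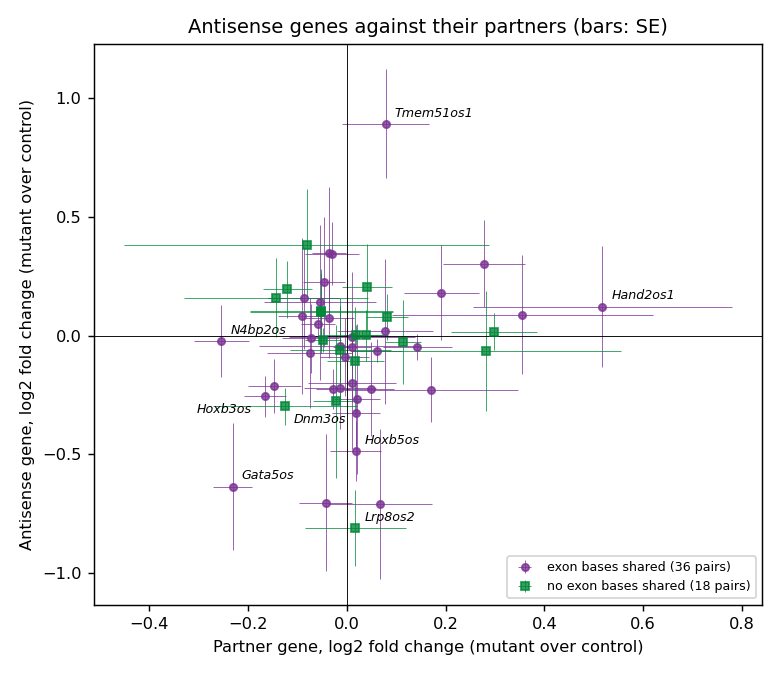
Log2 fold change (mutant over control) of the antisense gene on the vertical axis against that of its partner on the horizontal axis for the 54 pairs with both tested, bars giving the SE; purple circles mark pairs that share exon bases and green squares pairs that share none. The points spread over all 4 quadrants, and Lrp8os2, Tmem51os1 and Hoxb5os lie far from 0 on the antisense axis and near 0 on the partner axis.

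Genes typed as antisense outside the named pairs give a second reference. Symbols with the "os" ending but no partner were not removed from it. The named genes include other types as well, among them Ino80dos (lincRNA) and Abhd11os (transcribed unitary pseudogene), both without overlap between groups. The sets were therefore not matched by type. Apart from 1 row not reported here, 265 other antisense-type genes were tested, with a median of 1.45 CPM and a median size of the log2 fold change of 0.16, against 2.29 CPM and 0.16 for the named antisense genes. None passed in edgeR, where 16 had an unadjusted p under 0.05, while DESeq2 called 2 and limma-voom 1. Their groups did not overlap in 13 (4.91%), against 10 of 59 (16.9%) of the named ones, and the difference was not tested.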

How the data were processed

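Per the labels' protocols, total RNA was extracted with TRIzol LS, cleaned with a Qiagen micro kit and sequenced as stranded Illumina mRNA libraries. The authors deposited raw counts of read pairs per gene, made with featureCounts 1.6.4 in paired, reverse-stranded mode over GENCODE vM25 exons, per the file headers, and reads overlapping several genes or mapping to several places were not counted. STAR and GRCm38 are also named in the submitters' processing notes, without a STAR version.

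Symbols and gene types are those of GENCODE vM21, matched on gene ID for 55141 of 55401 rows, so a few vM25 names may differ; coordinates, strands and exon lengths are from the deposited table. All 8 libraries entered 1 fit in edgeR 4.0.16 (R 4.3.3): expression filter (15788 genes), TMM scaling, robust dispersions, two-sided quasi-likelihood test, no covariate, Benjamini-Hochberg adjustment over all genes, threshold 0.05. CPM values are TMM-scaled, and a 3-count floor is 0.0616 to 0.169 CPM. Exon overlap between genes was computed from the exons in the deposited table. Overlap with other genes on the same strand was looked up for the tested antisense genes and not for the partners. Sequences are from RefSeq (GRCm38.p6), with windows of 250 bases before to 50 after a start, for 176 antisense genes matched by symbol; distances between starts set the antisense start of the table against the partner start of the table or, where named, of RefSeq.

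The members, lists and tests were chosen with earlier results of these data known. Genes named are pairs with a call, the highest antisense levels, the largest antisense changes and pair differences among genes of at least 1 CPM, the highest divergent pairs, Lrp8os2 and Myrf. Hoxb3os, Zeb2os, Chn1os3, Abhd11os, Kcnmb4os2, Ino80dos, H3f3aos, Lrp8os1, Lrp8os3, Hoxb2, Hoxb4, Hoxb6, Hoxb7, Hoxb8 and the microRNAs were named after their values were seen. A comparison list of symbols ending in "ot" or "as" held mostly unrelated protein-coding names; its noncoding members Kcnq1ot1, Sox2ot and Znrd1as had log2 fold changes of -0.05, 0.33 and -0.23 and did not pass (adjusted p = 0.781, 0.630 and 0.543). The results for 1 antisense gene and 1 list of cell type markers are not reported here. The fit was tested on simulated data. Within groups, libraries differed by 2.77 to 7.838 times the sampling variance, so none was a duplicate. Alternatives were DESeq2 size factors, no count filter, a filter of 1 CPM in 4 libraries, DESeq2 1.42.0, limma-voom (limma 3.58.1), dispersions without robust estimation, a replicate block, the Y-linked level as covariate and leaving out each library; the fit of the 4 libraries that express Xist and also Y-linked genes was added after seeing the data.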

Additional observations from a re-analysis of the deposited data

Results flagged for a closer look

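Of 76 groups of 4 libraries examined, 7 held a library far from the other 3, a pattern that chance gives in about 1 of 20 groups. Among antisense genes, Dnm3os was lowest in control replicate 4 at 17.93 CPM, beside 19.71 to 19.91 CPM in the other controls. Tmem51os1 was also lowest in control replicate 4, at 0.5638 CPM beside 1.015 to 1.056 CPM. Epb41l4aos was highest in that library, at 15.39 CPM beside 15.15 to 15.19 CPM. Prox2os was highest in mutant replicate 3, at 4.343 CPM beside 3.208 to 3.352 CPM in the other mutants. Wdr83os was highest in mutant replicate 1, at 52.48 CPM beside 48.4 to 48.96 CPM. Among partners, Hoxb5 was highest in control replicate 4, at 119.6 CPM beside 103.8 to 104 CPM, and Egfr was highest in control replicate 3, at 31.68 CPM beside 28.13 to 28.47 CPM.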

How the results depend on the processing

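The antisense gene called was Lrp8os2 in 13 of 17 alternatives; Dnm3os, Hoxb5os and Tmem51os1 were called in 5, 4 and 3. Genes called over the whole table, antisense genes and partners were 236, 1 and 5 as reported, 791, 4 and 13 with no count filter, 380 and 3 (antisense) with DESeq2, 142 and 3 (partners) without robust estimation, 97, 0 and 2 with the Y-linked level as covariate and 87, 0 and 2 in the 4 libraries that express Xist and also Y-linked genes. Leaving out 1 library gave 96 to 479 genes, 0 to 3 antisense genes and 2 to 7 partners, the most genes without mutant replicate 4. The replicate block gave 541 genes, 4 antisense genes and 9 partners. Deviations of same-numbered libraries were weakly and positively correlated (0.0811, 0.0648, 0.181 and 0.0125 for replicates 1 to 4). On the second principal component (16.7% of variance), mutant replicates 1 to 4 scored 6.992, -7.499, -10.15 and 14.1. Control replicates 1 to 4 scored 9.35, -9.554, -18.72 and 15.47, which ranks the replicates alike. The labels do not say that the numbers mark pairs, so the main fit used none. What the numbers mark was not tested. Pairs of the same sign were 102 of 193 with no count filter, 34 of 54 with the Y-linked covariate and 16 to 32 on leaving out 1 library. The correlation was 0.00684 with no count filter, 0.0278 in the 4 libraries that express Xist and also Y-linked genes and 0.0396 to 0.21 on leaving out 1 library, and antisense groups without overlap numbered 10 to 13.

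Some fold changes turned sign, none of them called. Not all stayed near 0, since over the alternatives Foxd2 ran from -0.37 to 0.305 and N4bp2os from -0.12 to 0.282. The log2 values were -0.01 with the replicate block for Cep83os; 1.8e-05, -0.034 and 0.107 with the Y-linked covariate for Foxd2, Hoxb5 and N4bp2os; and -0.085, -0.055, 0.305, -0.01 and 0.282 in those 4 libraries for Cep83os, Epb41l4aos, Foxd2, Hoxb5 and N4bp2os. Leaving out 1 library gave -0.0067 to 0.044 for Brip1, -0.023 to 0.03 for Brip1os, -0.085 to 0.051 for Cep83os, -0.047 to 0.06 for Epb41l4aos, -0.37 to 0.225 for Foxd2, -0.0065 to 0.071 for Hoxb5, -0.02 to 0.106 for Lrp8, -0.12 to 0.118 for N4bp2os and -0.046 to 0.017 for Slc7a6os. The cause was not tested. The tested antisense genes had a median of 2.29 CPM, against 24.6 CPM for all tested genes.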
